A study of Mus musculus with 6 samples.

Results

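The resident Kupffer cell markers examined here were the 6 genes Clec4f, Vsig4, Timd4, Cd5l, Marco and Folr2, found by symbol among the 52459 genes of the count table, and all 6 were among the 17032 genes that passed the filter on low counts. RNA-Seq counts were available for the livers of 6 male mice, and the question put to these genes was whether their RNA differed between livers with and without hepatocyte Prdx2 knockout. All mice were Alb-Cre/Cas9 F1 animals of the C57BL6J strain that received an AAV8-U6 vector by vein at 4 to 5 weeks of age, 100 mg/kg diethylnitrosamine (DEN), a liver carcinogen, 3 weeks later, and from 1 week after that 6 months of CDA-HFD, a high-fat diet low in choline and with defined amino acids, and their age is given as 8 months. The vector carried a control guide RNA in mice 5.1, 7.1 and 7.2 (sgCtrl, 3 mice), whereas mice 1.1, 1.3 and 3.2 received the guide to Prdx2, an antioxidant peroxidase (sgPrdx2, 3 mice). Because Cas9 depended on Cre under the albumin promoter, editing was directed to hepatocytes and not to macrophages. There was no group without DEN or CDA-HFD. The labels do not say what the mouse numbers stand for. The part before the point differs between all sgCtrl and all sgPrdx2 mice and is shared by mice 7.1 and 7.2 and by mice 1.1 and 1.3, so if it names a cage or litter, that and the guide cannot be told apart and these mice are not independent.

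Kupffer cells are the macrophages that live in the liver sinusoids, where they take up bacteria, dying cells, iron and lipoproteins from the blood. In the healthy mouse they derive mostly from embryonic precursors and renew themselves in place. In fatty liver disease resident cells are known to be lost and partly replaced by macrophages that arise from blood monocytes, some of which take on a lipid-associated state marked by genes such as Gpnmb and Cd9.

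Total counts ranged from 37462102 to 56865293 per liver, and 3 counts, the floor of detection used here, stood for 0.0555 to 0.0921 normalized CPM (counts scaled to library size after TMM normalization), a limit that covers counting error only. Prdx2 RNA itself was at 109, 117 and 132 CPM in sgCtrl and 99.0, 112 and 149 CPM in sgPrdx2 livers, so the log2 fold change was 0.01 with a 95% interval of -0.41 to 0.42 (edgeR's quasi-likelihood test, adjusted p = 0.983). Cas9 cuts a gene's DNA and can leave its RNA level as it was, so the guide labels could not be checked from this RNA. Albumin took 6.61% to 7.01% of the counts in sgCtrl and 9.28% to 11.3% in sgPrdx2 livers. On the first principal component (44.9% of the variance) liver 3.2 lay at 61.0, away from the other sgPrdx2 livers at 19.7 and 10.9, while the sgCtrl livers lay between -39.4 and -26.0. No pair of libraries agreed within sampling noise (chi-square per degree of freedom of 34.7 to 286).

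In the mouse GRCm38 annotation the 6 genes lie on different chromosomes. Clec4f is at chr6:83644542-83656187 (minus strand), Vsig4 at chrX:96247203-96293438 (minus), Timd4 at chr11:46810800-46844332 (plus), Cd5l at chr3:87357881-87371073 (plus), Marco at chr1:120474538-120505024 (minus) and Folr2 at chr7:101839988-101857194 (minus). For 5 of them no stretch of 50 bases was shared with a transcript of another gene. Folr2 was the exception, since 834 of its 1585 stretches (52.6%) also lie in Gm10602, an antisense gene on the plus strand. Whether the counting used strand is not given in the sources used here, so Folr2 and Gm10602 reads may not be told apart. Gm10602 itself had 33 to 84 counts per liver.

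The sequences just upstream of the genes were read from RefSeq (GRCm38.p6), up to 250 bases before the start and outside exons, and are shown for 4 markers whose RNA varied together over the livers, with r of 0.84 to 0.97 for each pair of them. The letters GGAAGT, a form of the ETS core that the macrophage factor PU.1 can bind, are in capitals where found. The motif was chosen after the sequences were seen. The windows of Clec4f (chr6:83656188-83656366, minus), Vsig4 (chrX:96293439-96293688, minus), Cd5l (chr3:87357631-87357880, plus) and Folr2 (chr7:101857195-101857440, minus) read 5′ to 3′ as follows.
Clec4f: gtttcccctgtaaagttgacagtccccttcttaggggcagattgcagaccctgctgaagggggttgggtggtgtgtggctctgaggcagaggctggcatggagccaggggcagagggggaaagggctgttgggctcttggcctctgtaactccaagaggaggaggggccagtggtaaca
Vsig4: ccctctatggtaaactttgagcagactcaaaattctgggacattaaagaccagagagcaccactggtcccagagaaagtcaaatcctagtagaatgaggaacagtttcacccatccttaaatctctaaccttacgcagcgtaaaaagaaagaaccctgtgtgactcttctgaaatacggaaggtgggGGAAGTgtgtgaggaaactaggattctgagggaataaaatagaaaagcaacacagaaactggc
Cd5l: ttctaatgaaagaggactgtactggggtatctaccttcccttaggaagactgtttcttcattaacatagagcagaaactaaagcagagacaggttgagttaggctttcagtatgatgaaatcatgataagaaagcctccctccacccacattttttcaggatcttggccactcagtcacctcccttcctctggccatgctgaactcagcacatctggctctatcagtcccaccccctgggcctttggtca
Folr2: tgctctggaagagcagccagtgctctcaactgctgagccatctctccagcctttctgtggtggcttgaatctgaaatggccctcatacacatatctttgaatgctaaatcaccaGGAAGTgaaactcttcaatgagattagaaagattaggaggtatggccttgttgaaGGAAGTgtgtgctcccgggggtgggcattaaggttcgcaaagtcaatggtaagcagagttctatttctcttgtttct
On either strand, GGAAGT occurred 1 time before Vsig4 (at -63 from the start), 1 time before Timd4 (at -72, window not shown) and 2 times before Folr2 (at -136 and -81). It did not occur in the windows of Clec4f, Cd5l or Marco, although the Clec4f window was shortened to 179 bases by an exon and the full 250 bases held 1 match. Among all 32851 RefSeq promoter windows of 250 bases, 19.7% held it. The letters TGCTGA, a half-site of the MAF factors, occurred 1 time before Clec4f and Folr2 each and 2 times before Timd4 and Cd5l each, against 16.1% of all windows with a match. The AP-1 letters TGANTCA (6.75% of all windows) occurred before none of the 6. These matches describe the letters only.

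None of the 6 markers differed between sgPrdx2 and sgCtrl livers beyond the spread between livers. The count of markers called at an adjusted p under 0.05 was 0 of 6 (edgeR's quasi-likelihood test, Benjamini-Hochberg adjustment over 17032 genes), against 3.33% of all genes tested, and 0 of 6 had an unadjusted p under 0.05, against 24.9% of all genes. DESeq2 also called 0 of 6, where it called 2118 of all 17032 genes. The groups overlapped for each of the 6, whereas 34.2% of all genes tested had groups that did not overlap. The log2 fold changes ranged from -0.56 to -0.02 with a median of -0.31, beside a median of -0.02 over all genes. With 3 livers a group these estimates were wide, and in bulk liver RNA fewer Kupffer cells and less RNA per Kupffer cell cannot be told apart.

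Clec4f is a C-type lectin that binds galactose-type glycans and in the mouse is made almost only by Kupffer cells. Its RNA was at 24.6, 64.3 and 144 CPM in sgCtrl livers 5.1, 7.1 and 7.2 and at 84.1, 50.1 and 50.7 CPM in sgPrdx2 livers 1.1, 1.3 and 3.2. The lowest and the highest of the 6 livers were both sgCtrl livers, and all sgPrdx2 livers lay between them. The means were 77.5 ± 60.6 and 61.6 ± 19.4 CPM (SD, n = 3 each), and the log2 fold change of -0.33, with a standard error of 0.54, had an adjusted p of 0.731 in the edgeR test. The 95% interval of the fold reached from 0.333 to 1.90. The range within sgCtrl livers was 5.84-fold, compared with 1.68-fold within sgPrdx2 livers.

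Vsig4 is a complement receptor of the immunoglobulin family that binds C3 fragments on particles in the blood. It was at 16.9, 34.6 and 49.2 CPM in sgCtrl and at 33.0, 25.6 and 20.6 CPM in sgPrdx2 livers (5.1, 7.1, 7.2 and 1.1, 1.3, 3.2, in this order here and for the markers that follow). Liver 5.1 was again lowest and liver 7.2 highest. The log2 fold change of -0.35, with a standard error of 0.35, had an adjusted p of 0.573 in the edgeR test, with an interval of the fold from 0.446 to 1.39.

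Timd4 is a receptor for phosphatidylserine on dying cells and is carried by long-settled Kupffer cells, whereas cells newly derived from monocytes lack it at first. Its counts were very low, 8, 31 and 57 in sgCtrl and 42, 41 and 6 in sgPrdx2 livers, or 0.183, 0.690 and 1.08 CPM and 0.957, 0.758 and 0.184 CPM. It was detected above the floor of 3 counts in all 6 livers, and 1 liver of each group, 5.1 and 3.2, stood far below the rest. The exact 95% Poisson intervals, which cover counting error only, were 0.0789 to 0.360 CPM for liver 5.1 and 0.0676 to 0.401 CPM for liver 3.2, and both lay below the interval of 0.821 to 1.41 CPM for liver 7.2 and that of 0.690 to 1.29 CPM for liver 1.1. The groups had means of 0.652 ± 0.452 and 0.633 ± 0.401 CPM (SD, n = 3 each) and differed by -0.02 on the log2 scale, with a standard error of 0.67 (edgeR, adjusted p = 0.987). A fold between 0.335 and 2.89 was within the 95% interval, so a change of up to that size was not excluded with these livers.

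Cd5l encodes a secreted protein with scavenger receptor cysteine-rich domains that circulates with IgM and is made by tissue macrophages. It was at 100, 159 and 319 CPM in sgCtrl and 163, 141 and 87.7 CPM in sgPrdx2 livers. Liver 7.2 was highest, but here liver 3.2 and not liver 5.1 was lowest. Cd5l had the lowest log2 fold change of the 6, -0.56 with a standard error of 0.41 (edgeR, adjusted p = 0.429), and the interval of the fold, 0.351 to 1.31, included no change.

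Marco, a class A scavenger receptor for bacteria and particles, was at 2.26, 6.52 and 8.73 CPM in sgCtrl and 2.98, 8.43 and 2.98 CPM in sgPrdx2 livers. Liver 1.3 was close to liver 7.2 at the top, and the other sgPrdx2 livers were close to liver 5.1 at the bottom, an order not seen for the other markers. The log2 fold change of -0.27, with a standard error of 0.55, had an adjusted p of 0.781 in the edgeR test.

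Folr2, the folate receptor beta of tissue macrophages, was at 6.19, 12 and 17.7 CPM in sgCtrl and 12.1, 7.93 and 9.37 CPM in sgPrdx2 livers. Its livers fell in the same order as those of Clec4f. The log2 fold change of -0.29, with a standard error of 0.35, had an adjusted p of 0.632 in the edgeR test. The antisense Gm10602 was at 1.01 to 1.6 CPM, and its log2 fold change was -0.30 with a standard error of 0.25 (edgeR, adjusted p = 0.481).

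**Figure D1:**
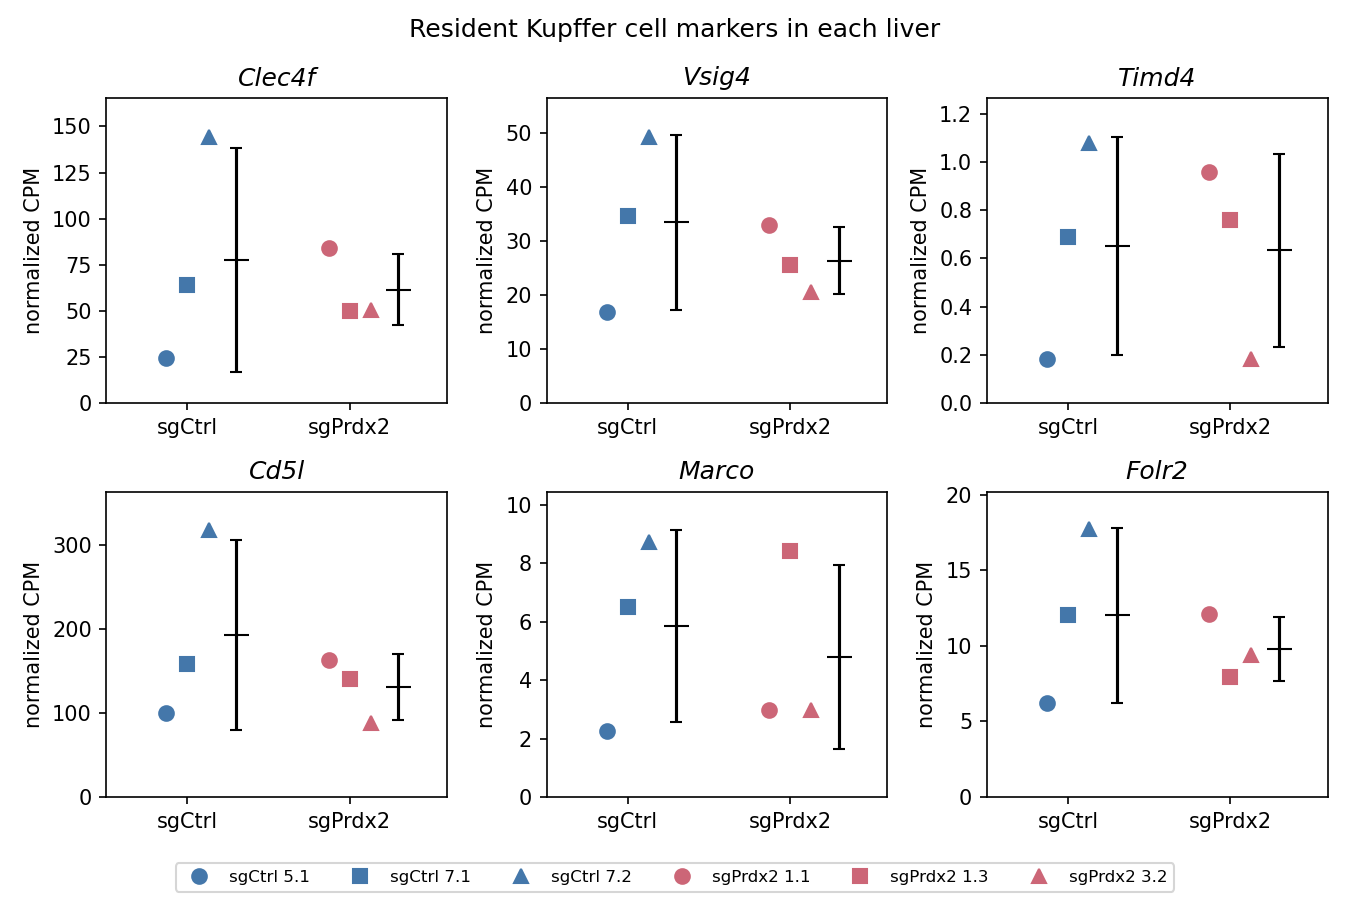
Normalized CPM (vertical axes, linear from 0) of each of the 6 markers in each liver by group, with 1 symbol per liver and, beside the points, the mean with bars of 1 SD (n = 3). Liver 7.2 (blue triangle) was highest in all 6 panels, from 1.08 CPM for Timd4 to 319 CPM for Cd5l, and the groups overlapped in each panel.

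Per kilobase of exon, the levels kept nearly the same order in every liver. The lowest, median and highest values over the 6 livers were 43.1, 73.7 and 157 CPM per kilobase for Cd5l, 9.96, 23.3 and 58.3 for Clec4f, 11.4, 19.7 and 33.2 for Vsig4, 4.00, 6.91 and 11.4 for Folr2, 1.17, 2.47 and 4.54 for Marco, and 0.0842, 0.333 and 0.497 for Timd4. Neighbours in this order held it in 6 of 6 livers, except that Clec4f was above Vsig4 in 5 of 6. The ranges of neighbours overlapped, other than those of Marco and Timd4.

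The 6 markers varied widely among livers of the same group. The SD of log2 CPM within groups was 0.95 for Clec4f, 0.60 for Vsig4, 1.17 for Timd4, 0.68 for Cd5l, 0.94 for Marco and 0.58 for Folr2, where the median over all genes tested was 0.25. These values lay at the 91.6th to 99.1th percentile of all genes, and at the 96.6th to 99.4th percentile of the genes at a like level of expression. Liver 7.2 was the highest of 6 for each of the 6 markers, and liver 5.1 the lowest for 5 of 6. Summed over the 6 markers the level was 150, 277 and 539 CPM in sgCtrl and 296, 234 and 172 CPM in sgPrdx2 livers, most of which were reads of Cd5l and Clec4f.

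The markers rose and fell together over the livers. Pearson's r of log2 CPM was 0.52 to 0.97 over the 15 pairs of markers (median 0.84, n = 6 livers), and after subtracting group means it was 0.51 to 0.99 (median 0.84). The highest was that of Clec4f and Folr2, with r = 0.97 (two-sided exact permutation p = 0.00417, adjusted over 15 pairs 0.0278) and Spearman's rho = 1 (exact permutation p = 0.00278, adjusted 0.0417). Without livers 7.2 and 5.1, the farthest from the median, r of this pair was 0.86. Exact permutation tests of r passed an adjusted p of 0.05 for 6 of the 15 pairs, and tests of rho for 1. The other pairs that passed were Clec4f with Vsig4 (r = 0.95, rho = 0.89), Vsig4 with Folr2 (0.95, 0.89), Vsig4 with Cd5l (0.94, 0.89), Vsig4 with Timd4 (0.89, 0.83) and Timd4 with Cd5l (0.86, 0.89), with exact permutation p of 0.00556 to 0.0111 for r (adjusted 0.0278) and 0.0333 to 0.0583 for rho (adjusted 0.0729). Leaving out the farthest livers put r between 0.75 and 0.93 for these 5. All 6 genes were read from the same libraries, so each pair shares their scaling.

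Marco followed the others less closely. Its 5 pairs had r of 0.52 to 0.71 and none passed. Without the farthest livers r fell to -0.40 with Clec4f and with Folr2, to -0.15 with Timd4 and to 0.21 with Vsig4, and it was 0.52 with Cd5l. The relations with Clec4f, Folr2 and Timd4 thus rested on those livers. The matrix of correlations shows Marco as the darkest row and column.

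**Figure D2:**
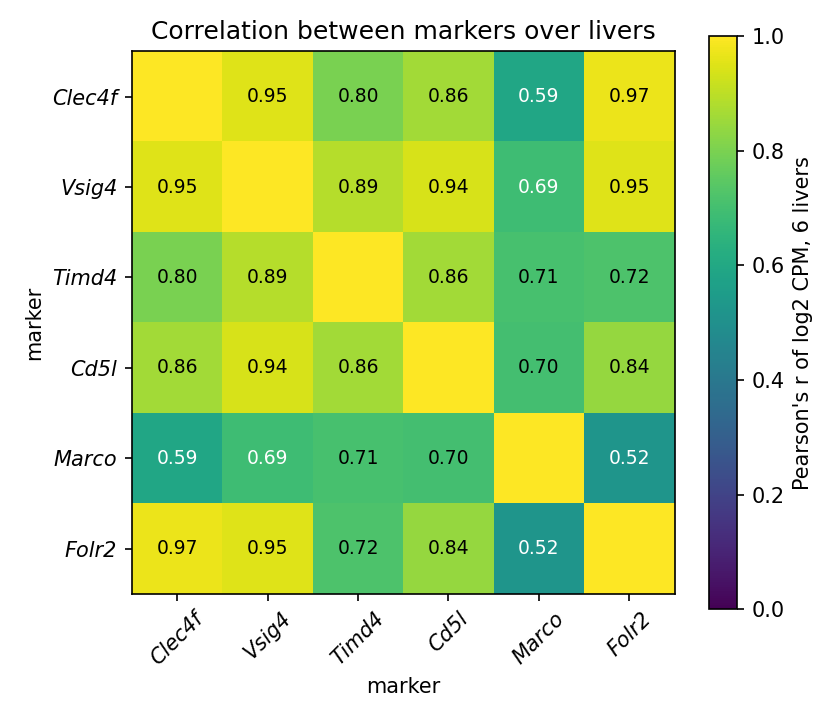
Pearson's r of log2 CPM over 6 livers for each pair of the 6 markers, as a colour scale from 0 (dark) to 1 (yellow) with the value in each cell. Clec4f, Vsig4, Cd5l and Folr2 had r of 0.84 to 0.97 with each other, and Marco had 0.52 to 0.71 with the rest.

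Among 14122 genes whose mean was 1 CPM or more, the genes whose log2 CPM was most like that of each marker over the 6 livers included other markers near the top for Clec4f, Folr2, Vsig4 and Cd5l but not for Timd4 and Marco. For Clec4f these were Iglon5 (r = 0.981), Folr2 (0.971) and Zfp574 (0.965), and Vsig4 ranked 9th. For Folr2 they were Iglon5 (0.978), Clec4f (0.971) and Sstr2 (0.95), with Vsig4 4th. For Vsig4 they were Tmem26 (0.985), Trappc9 (0.984) and Nfil3 (0.980), while Clec4f, Folr2 and Cd5l ranked 10th, 12th and 18th. Cd5l was most like Gm5422 (0.980), Ghitm (0.975) and Gtf2e1 (0.974), with Vsig4 15th. Timd4 was most like Dtwd2 (0.991), Hsp90b1 (0.979) and Mreg (0.976), and Marco most like Ric8a (0.970), Tmem263 (0.969) and Fer (0.965). The closest other marker among these ranked genes was Vsig4, ranked 88th, for Timd4 and Cd5l, ranked 386th, for Marco. Timd4 had a mean below 1 CPM and so was not ranked for the other markers. Its r with Marco was 0.709, beside 0.702 for Cd5l with Marco. With 6 points and so many genes, values of this size describe these livers only.

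Other genes of Kupffer cells were mostly at lower levels in sgPrdx2 livers, with 11 of 14 log2 fold changes negative and 3 positive. Of 15 such genes, 14 were tested (Cd163 had 0 to 8 counts), 2 were called lower and 0 higher in sgPrdx2 livers, against 1.54% of all genes called lower and 1.79% called higher, and their median log2 fold change was -0.33. Hmox1, the heme-degrading enzyme heme oxygenase 1, fell from 130 ± 25.3 to 64.2 ± 6.13 CPM (SD, n = 3 each here and in the lists that follow, log2 fold change -1.01, adjusted p = 0.0386 by edgeR). Vcam1, an adhesion molecule, fell from 85.4 ± 9.75 to 43.5 ± 8.77 CPM (-0.97, adjusted p = 0.0409). The log2 fold change of Spic, a transcription factor of iron-recycling macrophages, was -0.61 (adjusted p = 0.160 by edgeR), and that of Nr1h3, the nuclear receptor LXR alpha that Kupffer cell identity depends on, was 0.46 (adjusted p = 0.135). Hmox1, Vcam1 and Nr1h3 are also expressed by other liver cells. In 6 of the 14 genes all sgPrdx2 livers lay below all sgCtrl livers (17.5% of all genes did so), and in 1 they lay above (16.7% of all genes).

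Signals and receptors of the Kupffer cell niche were mostly at lower levels in sgPrdx2 livers. Of 10 tested, 2 were called lower, against 1.54% of all genes. In 6 of the 10 all sgPrdx2 livers lay below all sgCtrl livers, against 17.5% of all genes. The median log2 fold change was -0.38. Il34, a ligand of the macrophage growth factor receptor, fell from 12 ± 0.420 to 7.09 ± 1.20 CPM (log2 fold change -0.76, adjusted p = 0.0487 by edgeR). Tgfb1 fell from 42.7 ± 3.45 to 28.0 ± 2.41 CPM (-0.61, adjusted p = 0.0466). The receptors Csf1r and Acvrl1, for CSF1 and IL-34 and for BMP ligands of the niche, stood at -0.46 (adjusted p = 0.110) and -0.51 (adjusted p = 0.111) on the log2 scale. Of the 10 log2 fold changes 8 were negative and 2 positive. The positive ones were those of the BMP ligands Gdf2 (0.10, adjusted p = 0.652 by edgeR) and Bmp10 (0.07, adjusted p = 0.937). Bmp2 was at -0.24 (adjusted p = 0.399). With RLE scaling 1 of the 10 was called lower. With scaling to 6 housekeeping genes 4 were, at a median of -0.74, while 919 of all 17032 genes were called lower.

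Genes of macrophages at large, of lipid-associated macrophages and of monocytes had lower medians than the 6 markers, -0.50, -0.58 and -0.76. Over all genes 1.54% were called lower, a share to set beside the counts of these lists. Of 16 general macrophage genes 1 was called lower and 14 had a negative log2 fold change. This was Mpeg1, encoding the pore-forming perforin-2 of phagocytes, which fell from 491 ± 30.6 to 278 ± 26.5 CPM (log2 fold change -0.82, adjusted p = 0.0394 by edgeR). The lysosomal proteases Ctss (-0.86, adjusted p = 0.0530) and Lgmn (-0.71, adjusted p = 0.0596) and the Fc receptor Fcgr1 (-0.90, adjusted p = 0.0671) missed the threshold. Of 10 lipid-associated macrophage genes 3 were called lower and all 10 were negative. Mmp12, a macrophage elastase, fell from 607 ± 97.7 to 261 ± 50.2 CPM (-1.22, adjusted p = 0.0358), Gpnmb from 931 ± 172 to 440 ± 35.3 CPM (-1.08, adjusted p = 0.0373) and the tetraspanin Cd9 from 125 ± 13.2 to 73.4 ± 4.20 CPM (-0.77, adjusted p = 0.0394). Of 10 monocyte genes 2 were called lower, namely the integrin Itgam (-1.24, adjusted p = 0.0394) and the proteoglycan Vcan (-1.06, adjusted p = 0.0483), while Chil3, a chitinase-like protein, was at -1.62 (adjusted p = 0.0561) and the chemokine receptor Ccr2 at -0.41 (adjusted p = 0.0804). The list of general macrophage genes and that of the niche share Csf1r. With scaling to 6 housekeeping genes, which placed the median of all genes at -0.38, the calls were 11 of 16, 7 of 10 and 5 of 10 in these lists. Under that scaling 919 of all 17032 genes were called lower and 70 higher. Every call of a Kupffer cell, niche, macrophage or monocyte gene given above was lost when any of livers 5.1, 7.2, 1.1 or 1.3 was left out, since 0 genes of the whole table then passed the adjusted threshold in edgeR (3114 to 3993 genes had an unadjusted p under 0.05).

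**Figure D3:**
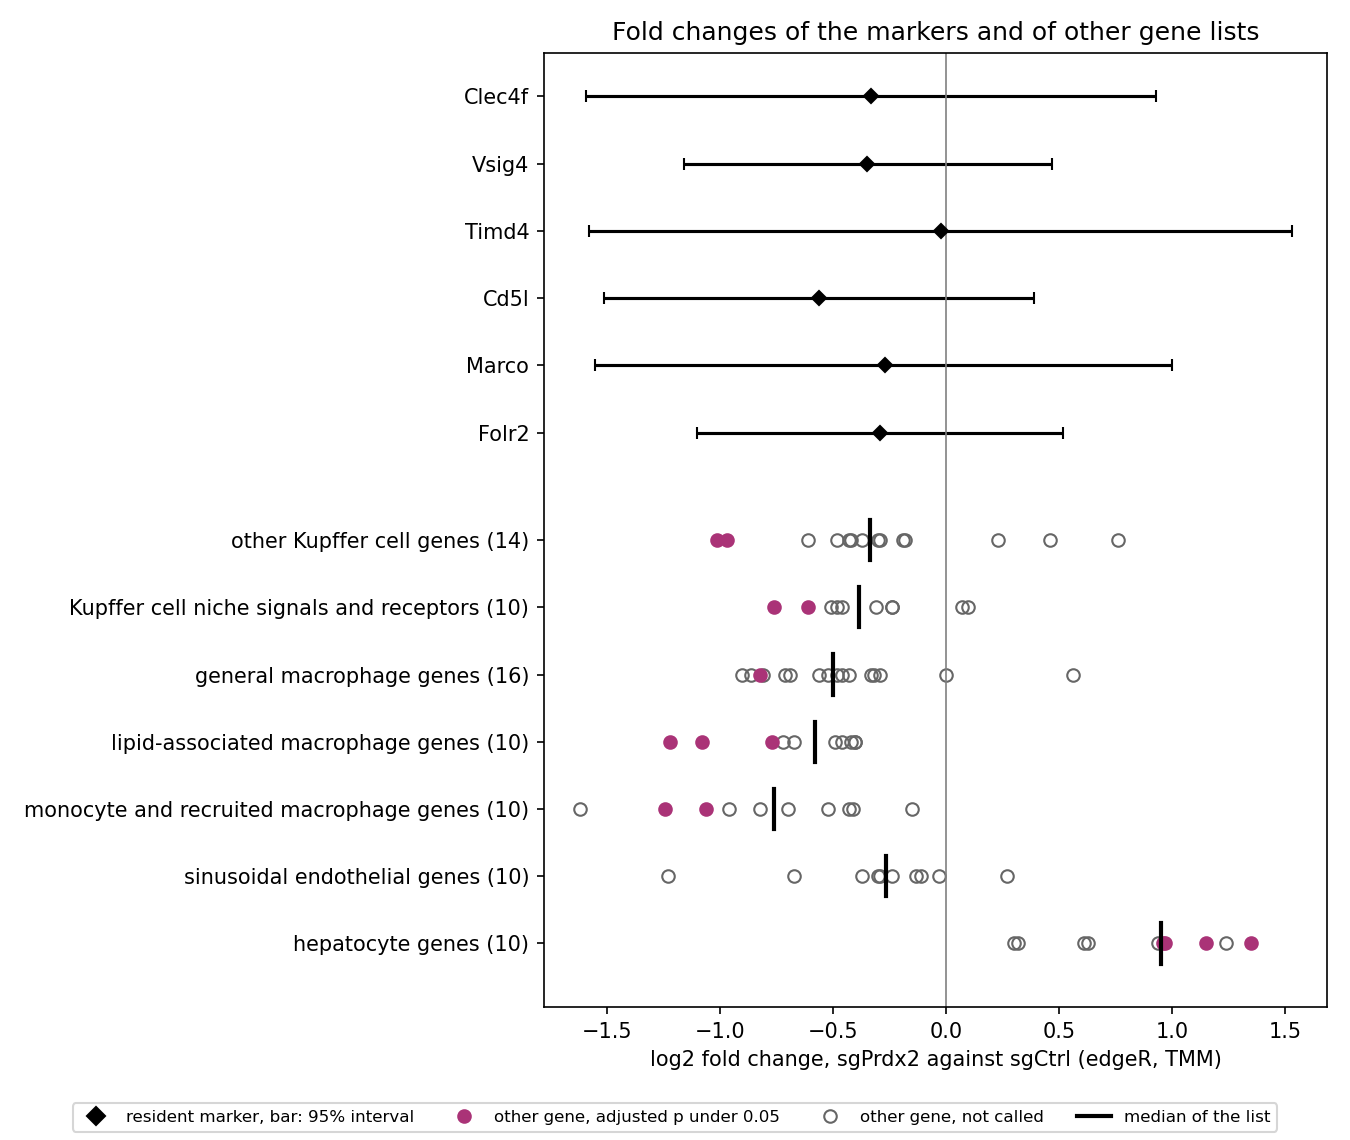
Log2 fold change of sgPrdx2 against sgCtrl livers (horizontal axis, edgeR after TMM normalization) for the 6 markers with 95% intervals (diamonds and bars) and for the tested genes of 7 other lists (circles, filled where the adjusted p was under 0.05, number of genes in brackets), with a vertical tick at each list's median. All 6 marker intervals include 0, while the lists of lipid-associated macrophage and monocyte genes lie wholly below 0 and that of hepatocyte genes wholly above (with housekeeping scaling 2 of 10 hepatocyte genes turned negative).

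Set against the general macrophage genes in the same liver, the markers again differed more between livers than between groups. Their summed CPM was 2.42%, 5.36% and 8.87% of that of the 16 general macrophage genes in sgCtrl and 8.10%, 6.19% and 3.43% in sgPrdx2 livers. Lyz2 was the largest part of the macrophage sum, at 1340 to 2080 CPM per liver, so these values depend on the genes chosen. The ratio was lowest in liver 5.1, highest in liver 7.2, and 8.10% in liver 1.1 of the other group. Liver 5.1, lowest in 5 of 6 markers, had the highest summed general macrophage level of the 6, 6200 CPM, next to 6080 CPM in liver 7.2, which was highest in all 6 markers. Marker by marker, the log2 ratio to the macrophage sum differed between groups by 0.06 (Cd5l) to 0.49 (Timd4), higher in sgPrdx2 livers, with two-sided exact permutation p of 0.5 to 0.9 where the smallest p that 3 against 3 allow is 0.1. Without liver 5.1 these 6 differences were -0.39 to -0.15, and without liver 1.1 they were positive for 3 of 6.

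The ratio of Timd4 to Clec4f, a gene of long-settled Kupffer cells against one of Kupffer cells in general, was 0.743%, 1.07% and 0.755% in sgCtrl and 1.14%, 1.51% and 0.363% in sgPrdx2 livers. The sgPrdx2 livers held both the highest and the lowest value. The difference of log2 ratios was 0.02 (two-sided exact permutation p = 1), and it turned to between -0.39 and -0.06 without liver 5.1, 7.2, 1.1 or 1.3 in turn. In liver 3.2 the numerator rested on 6 counts.

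**Figure D4:**
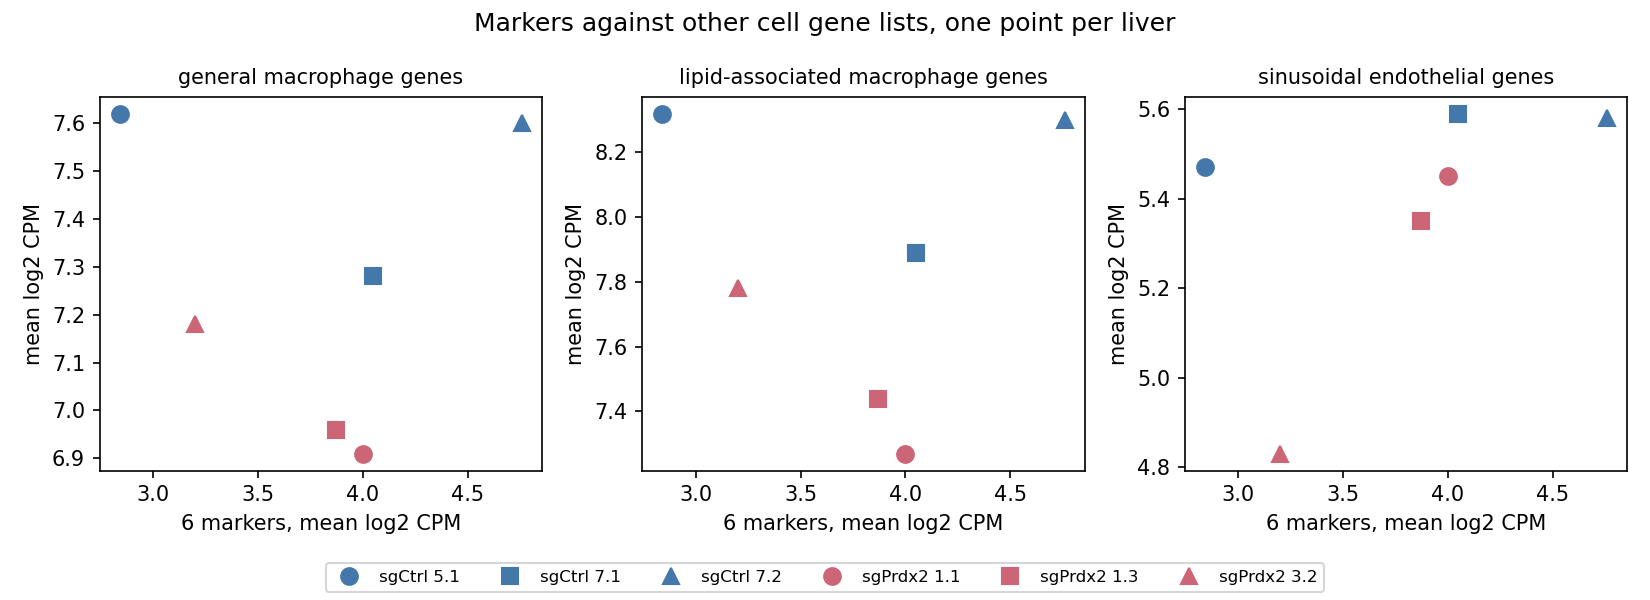
Mean log2 CPM of the 6 markers (horizontal axes) against that of the general macrophage, lipid-associated macrophage and sinusoidal endothelial genes (vertical axes, not starting at 0), with 1 point per liver. Livers 5.1 and 7.2 lie at opposite ends of the marker axis, at 2.84 and 4.76, and at heights of 7.62 and 7.6, 8.32 and 8.30, and 5.47 and 5.58 from left to right.

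Markers of the other cells of the liver are given here because bulk RNA mixes them. Of 10 hepatocyte genes 4 were called higher (Ttr, Cyp2e1, Apoa1 and Alb, log2 fold changes of 0.96 to 1.35), against 1.79% of all genes, and the median was 0.95. Under housekeeping scaling 2 were called higher at a median of 0.58. In that fit 70 of all 17032 genes were called higher, and the median of all genes was -0.38. Without liver 5.1, 7.2, 1.1 or 1.3, 0 hepatocyte genes were called, as were 0 genes of the whole table. Summed hepatocyte levels were 79900 to 86800 CPM in sgCtrl and 138000 to 182000 CPM in sgPrdx2 livers. Of 10 sinusoidal endothelial genes 0 were called (2 at an unadjusted p under 0.05 by edgeR, against 24.9% of all genes). Their summed level was 557 to 582 CPM in sgCtrl and 423 to 553 CPM in sgPrdx2 livers, lowest in liver 3.2. That liver was also lowest or next to lowest in Vsig4, Timd4, Cd5l and Marco. Of 10 T and B cell genes 1 was called, Cd8a, which was lower (1.54% of all genes were called lower). Of 5 tested neutrophil genes 0 were called (2 at an unadjusted p under 0.05 by edgeR, against 24.9% of all genes). Pearson's r of the markers' mean log2 CPM was 0.14 with that of hepatocyte genes and 0.52 with sinusoidal endothelial genes (n = 6 livers). It was -0.18 with T and B cell genes and 0.77 with neutrophil genes. Without livers 5.1 and 7.2 these values were -0.44, 0.99, 0.36 and 0.55. What part these other cells had in the marker levels was not tested.

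Single livers decided the direction of the marker differences. Without liver 7.2 the median log2 fold change of the 6 markers was 0.12 and all 6 were positive, from 0.01 for Cd5l to 0.57 for Timd4, and without liver 5.1 the median was -0.66. Without liver 5.1 Vsig4, Cd5l and Folr2 had an unadjusted p under 0.05 by edgeR (0.0288, 0.0447 and 0.0452), where 17.9% of all genes in that fit did, but none passed after adjustment (0.227, 0.268 and 0.269). Under the housekeeping scaling the median of the markers was -0.64, beside -0.38 over all genes.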

How the data were processed

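RNA was sequenced from 3 sgCtrl and 3 sgPrdx2 livers, each from its own mouse per the labels, and grouped by the guide RNA label. The authors deposited raw counts of reads per gene as whole numbers. The submitters' processing notes name HISAT2, HTSeq, DESeq2 and GRCm38, and the annotation and strandedness are not given in the sources used here. A second deposited table holds the authors' DESeq2 comparison and was not used.

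The analysis ran in R 4.3.3 and edgeR 4.0.16 (filterByExpr with minimum count 10, TMM, glmQLFit and glmQLFTest, all 6 livers, no covariate), which was tested on simulated data. A gene was called where its p, adjusted by Benjamini-Hochberg over 17032 genes, was under 0.05. Standard errors were taken as the size of the log2 fold change over the root of F. Single values were compared by two-sided exact permutation tests (smallest p 0.1). The p-values computed for scores over the markers are not given here. Intervals of counts cover counting error only. Correlations used log2 CPM with a prior count of 2.

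The 6 markers and the gene lists were chosen with earlier results of these data known. Named genes were the markers, up to 4 genes of smallest p in each other list and the 3 genes most like each marker. Some genes with few or no counts, called genes, or members of the same list were named beside their counts. Coordinates, exon lengths and shared 50-base stretches came from the GENCODE annotation of GRCm38, which need not be that of the authors. Alternatives were RLE, upper-quartile and housekeeping scaling, DESeq2 1.42.0, limma-voom (limma 3.58.1), no filter, at least 10 counts in every liver, scaling without mitochondrial and the 50 most abundant genes, other macrophage denominators, a pseudocount of 1 CPM and leaving out each liver.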

Additional observations from a re-analysis of the deposited data

How the results depend on the processing

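The number of markers called was 0 under all 14 alternatives, and adjusted p ranged from 0.341 to 0.984 for Clec4f, 0.227 to 0.954 for Vsig4, 0.692 to 0.997 for Timd4, 0.191 to 0.982 for Cd5l, 0.306 to 0.987 for Marco and 0.226 to 0.868 for Folr2. Leaving out each liver in turn moved the log2 fold change from -0.75 to 0.47 for Clec4f, -0.67 to 0.04 for Vsig4, -0.45 to 0.57 for Timd4, -0.87 to 0.01 for Cd5l, -0.95 to 0.14 for Marco and -0.60 to 0.11 for Folr2, and their median from -0.66 (without liver 5.1) to 0.12 (without liver 7.2). The median of the markers less that of all genes went from -0.65 to 0.14. Without liver 7.2 the values of the 6 markers were positive. Timd4 was also positive, at 0.01, without liver 7.1, at 0.39 without liver 3.2 and at 0.05 under limma-voom, and it had no value with at least 10 counts in every liver. Every other alternative kept the sign of each marker. Leaving out each liver moved the log2 ratio of summed markers to macrophage genes from -0.31 (without 5.1; -0.08 without 1.1) to 0.63, the number of markers with a positive ratio from 0 to 6, and the ratio of Timd4 to Clec4f from -0.39 to 0.64. The ratios of single markers moved from -0.24 to 1.05 for Clec4f, -0.22 to 0.56 for Vsig4, -0.31 to 1.37 for Timd4, -0.38 to 0.47 for Cd5l, -0.39 to 0.63 for Marco and -0.15 to 0.63 for Folr2. With all 6 livers the log2 ratio of the sums differed between groups by 0.19. It was 0.53 against Adgre1 alone, 0.15 against Csf1r alone and 0.29 with means of log2(CPM + 1). The differences of the 6 single markers were positive with each of these denominators.

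Over all genes 567 were called, against 989 with housekeeping scaling (70 higher and 919 lower, where the TMM calls were 305 and 262), 2118 by DESeq2 and 1128 with no filter. Leaving out a liver gave 0 to 619, with 0 without 5.1, 7.2, 1.1 or 1.3. The cause was not tested. No paired analysis was possible because the labels give the groups no shared replicate numbers. Timd4, with 6 to 57 counts, is the marker that depth limits most.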

Other observations

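Among 8 genes related in sequence family to the markers, 7 were tested (Havcr1 was not), 1 was called higher and 1 lower in sgPrdx2 livers. Over all genes 1.79% were called higher and 1.54% lower. Timd2, a TIM family member, was at 37.3, 45.4 and 38.3 CPM in sgCtrl livers 5.1, 7.1 and 7.2 and at 85.1, 66.3 and 90.4 CPM in sgPrdx2 livers 1.1, 1.3 and 3.2. Every sgPrdx2 liver lay above every sgCtrl liver, and the log2 fold change was 1 with a standard error of 0.16 (edgeR, adjusted p = 0.0358). Timd4, of the same family, was at -0.02 on the log2 scale in these livers (edgeR, adjusted p = 0.987), and the difference between the genes was not tested. Msr1, a class A scavenger receptor like Marco, fell by 0.82 on the log2 scale, from 50.6 ± 9.14 to 28.7 ± 1.92 CPM (SD, n = 3 each; edgeR, adjusted p = 0.0409). Havcr2, another TIM family member, was at a log2 fold change of -0.81 (adjusted p = 0.0650 by edgeR) and Cd6, which like Cd5l carries scavenger receptor cysteine-rich domains, at -0.36 (adjusted p = 0.520). Both calls were lost without livers 5.1, 7.2, 1.1 or 1.3, and that of Timd2 also under housekeeping scaling.

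Of the other Kupffer cell genes, Fcna, a ficolin, had levels of 14.6, 21.9 and 44.7 CPM in sgCtrl and 25.3, 19.1 and 26.9 CPM in sgPrdx2 livers. It was lowest in liver 5.1 and highest in liver 7.2, as were Clec4f, Vsig4, Timd4, Marco and Folr2, and it was chosen after its values were seen. Other genes of its list did not share both, such as Clec1b, lowest in liver 7.1, and Slc40a1 and Cd38, lowest in liver 3.2. The 6 housekeeping genes had a median log2 fold change of 0.43 with 0 called (3 at an unadjusted p under 0.05 by edgeR, against 24.9% of all genes). In 4 of them all sgPrdx2 livers lay above all sgCtrl livers, against 16.7% of all genes.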
